A study of Drosophila melanogaster with 8 samples.

Results

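Transcripts of the _412_, mdg1 and Stalker retrotransposons were followed in ovaries of Drosophila melanogaster aged 4 to 6 days. The members were the rows of the transposon count tables named _412_ or mdg1 or beginning with Stalker, which gave 6 of the 123 families: _412_, mdg1, Stalker, Stalker2, Stalker3T and Stalker4. Families named by a number are set in italics, to tell the name from a count. Total RNA depleted of ribosomal RNA was sequenced from 4 groups of 2 libraries. The piwi mutant carried the alleles piwi1 and piwi2, and its control carried the driver nos-GAL4-VP16. In the RnpS1 knockdown a double-stranded RNA against RnpS1 was combined with tj-GAL4 and a short hairpin RNA against RnpS1 with nos-GAL4-VP16, and its control carried both drivers without either RNA. The nos driver acts in the germline and tj-GAL4 in the somatic follicle cells. The labels name a driver and no piwi allele for the piwi control, so that the pair is not labelled as differing in piwi alone. They do not state how many females went into a library.

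LTR retrotransposons move through an RNA copy that is also their messenger RNA. The count of a family does not show how much of it comes from full-length copies of that RNA. In the fly ovary they are held down by piRNAs, small RNAs that guide the Argonaute protein Piwi to nascent transposon transcripts in the nucleus, where the locus is then packed into heterochromatin. Follicle cells rely on Piwi alone among the Piwi-type Argonautes, whereas the germline also has Aubergine and AGO3, which cut transposon RNA in the cytoplasm. The 6 families belong to the gypsy superfamily; _412_ and mdg1 are closely related to each other and to the family blood, and mdg1 is widely used to follow Piwi-dependent silencing in cultured ovarian somatic cells. RnpS1 is an accessory factor of the exon junction complex, which marks spliced RNA. The title of the series ties that complex to transposon control through splicing of the piwi transcript.

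Levels (CPM) are counts of a family or gene per 1000000 gene counts of the same library. They depend on the length of an element and are compared between libraries, not between families. Levels and ratios of their means carry no further scaling. The log2 fold changes also use a scaling factor per library (TMM) taken from the gene counts. A ratio of means and the log2 fold change beside it therefore need not match. Gene counts ranged from 37426999 to 86692865 per library and transposon counts from 271662 to 5652012. Changes are log2 fold changes with their standard error (SE), tested by quasi-likelihood in edgeR, with p-values adjusted over all 123 families by the Benjamini-Hochberg method and called when the adjusted p is under 0.05. Whether replicate libraries stem from separate groups of females is not stated, so the spread behind the p-values may be technical. For a family that spread was close to the trend over all 123 families. It was hardly the spread of the family's own replicates.

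Both targeted genes were lower in their groups. The gene piwi had 202 and 193 CPM in the mutant, against 316 and 312 CPM in the piwi control, a change of −0.83 on the log2 scale (SE 0.133, adjusted p = 0.0185 in edgeR over 10434 genes, of which 11.4% were called). In the RnpS1 knockdown RnpS1 had 8.75 and 3.78 CPM, against 45.0 and 39.6 CPM in the RnpS1 control (−2.88, SE 0.366, adjusted p = 0.0207; 1.62% of genes were called). The knockdown libraries also had less piwi, 189 and 156 CPM against 414 and 337 CPM in their control (−1.24, SE 0.134, adjusted p = 0.0149). Knockdown replicate 2 was thus the lower of the pair for both genes. The call of piwi in the mutant was lost without any 1 of its 4 libraries (adjusted p between 0.0676 without control replicate 1 and 0.112 without mutant replicate 2). In the knockdown both calls were lost without RnpS1 control replicate 1 (0.0866 for piwi, 0.0929 for RnpS1) and that of RnpS1 also without control replicate 2 (0.0680).

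The families _412_ and mdg1 were the members with the highest changes, and they rose in both comparisons. In the mutant their changes ranked 29 and 30 from the top of 123 families. The family _412_ had 1698 and 1769 CPM in the piwi mutant, against 206 and 162 CPM in the piwi control. In the RnpS1 knockdown _412_ had 532 and 1132 CPM, against 44.4 and 61.4 CPM in the RnpS1 control. Both groups stood clear of their control, and the mutant was the highest of the 4 groups.

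In the mutant the mean of _412_ was 9.42 times that of the control (1734 ± 50.6 against 184 ± 30.7 CPM, SD, n = 2 each; log2 fold change 3.08, SE 0.524, adjusted p = 2.8e-08). In the knockdown it was 15.7 times that of its control (832 ± 424 against 52.9 ± 11.99 CPM, SD, n = 2 each; log2 fold change 3.87, SE 0.543, adjusted p = 1.6e-10), the change ranked 2 from the top of 123 families. The level in the knockdown was 48.0% of that in the mutant, whereas its fold over the control was higher. The test of the difference between the 2 changes made no call (0.79, SE 0.685, adjusted p = 0.366, edgeR). The RnpS1 control had less _412_ than the piwi control had (−1.82, SE 0.499, adjusted p = 0.00407). That difference was lost without RnpS1 control replicate 1 (−1.58, adjusted p = 0.174) or piwi control replicate 1 (−1.62, adjusted p = 0.0980). The knockdown change of _412_ was 3.20 without knockdown replicate 2 and 4.32 without knockdown replicate 1, and it kept its call with each of the 8 libraries left out.

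The family mdg1 had 1558 and 1638 CPM in the piwi mutant, against 201 and 149 CPM in the piwi control (1598 ± 56.4 against 175 ± 36.6 CPM, SD, n = 2 each; log2 fold change 3.03, SE 0.518, adjusted p = 3.1e-08). In the knockdown mdg1 had 406 and 746 CPM, against 120 and 56.8 CPM in the RnpS1 control. These groups did not overlap, and the knockdown mean was 6.51 times the control mean (log2 fold change 2.59, SE 0.509, adjusted p = 1.2e-05), ranked 7 from the top. The level in the knockdown was 36.0% of that in the mutant. The change was 3.22 without RnpS1 control replicate 1, 2.15 without RnpS1 control replicate 2, 2.97 without knockdown replicate 1 and 2.08 without knockdown replicate 2. It kept its call in each. The controls of the 2 comparisons had mdg1 at a log2 difference of −1.01 (RnpS1 control over piwi control, SE 0.484, adjusted p = 0.0963).

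**Figure D1:**
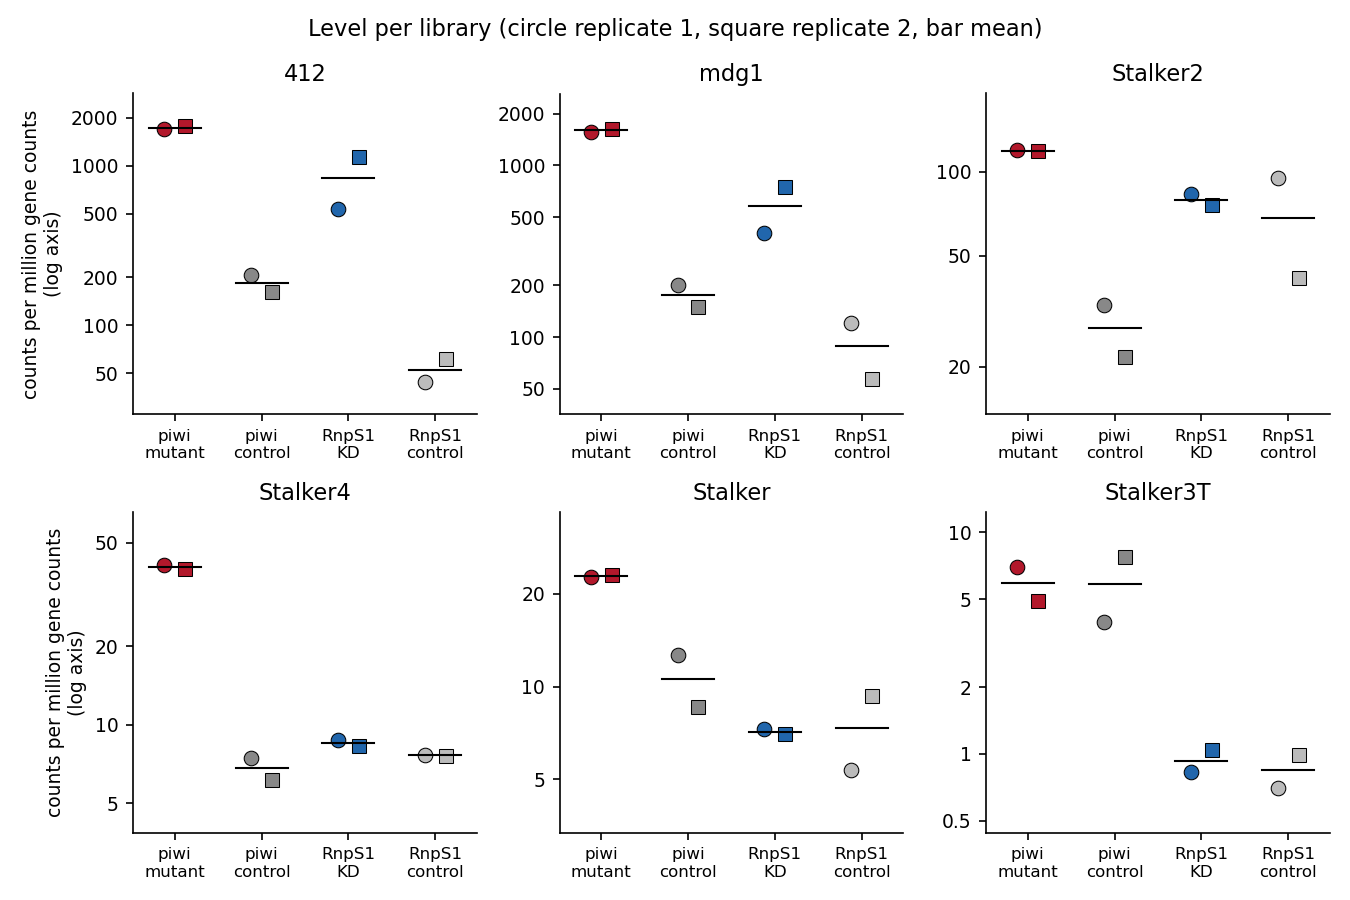
Level of each of the 6 families in each library, in CPM on a log axis that differs between panels; circles are replicate 1, squares replicate 2 and bars the group mean. For _412_ and mdg1 both piwi mutant and RnpS1 knockdown libraries lie above their controls, and for Stalker4 the mutant lies at 40.9 and 39.7 CPM and the other 6 libraries between 6.17 and 8.75 CPM.

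The knockdown replicates differed in both families. Replicate 2 had 2.13 times the _412_ and 1.84 times the mdg1 of replicate 1, whereas the mutant replicates differed by 1.04 and 1.05 times. The replicate with more _412_ and mdg1 was the one with less RnpS1 and less piwi. The RnpS1 control had the same order for RnpS1 (45.0 and 39.6 CPM in replicates 1 and 2), piwi (414 and 337 CPM) and _412_ (44.4 and 61.4 CPM). For mdg1 it had the other order (120 and 56.8 CPM). A link between these levels was not tested. In the knockdown the transposons as a whole went the other way: counts of all families per 100 gene counts were 2.40 in replicate 1 and 1.57 in replicate 2. The larger total of replicate 1 went with the families copia, at 10941 and 3986 CPM in replicates 1 and 2, and the ribosomal DNA element R2, at 4677 and 609 CPM. Of the 22 families called higher in the knockdown, 15 were higher in replicate 2, as were 91 of all 123.

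Counts of all transposons per 100 gene counts were 12.1 and 10.7 in the mutant, against 0.880 and 0.574 in the piwi control. The share of _412_ in all transposon counts did not follow its level. The share of _412_ was 1.40% and 1.65% in the mutant, against 2.34% and 2.82% in the piwi control. In the knockdown it was 2.21% (95% Wilson interval 2.19 to 2.23) and 7.22% (7.18 to 7.27), against 0.689% and 0.908% in the RnpS1 control. The mutant thus had more _412_ per gene count and less of it per transposon count, whereas the knockdown had more by either measure. For mdg1 the share was 1.29% and 1.53% in the mutant, against 2.28% and 2.60% in the piwi control. In the knockdown it was 1.69% and 4.76%, against 1.86% and 0.840% in the RnpS1 control, so that the groups overlapped. Intervals cover counting error only, since the labels describe no molecular tags.

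The ratio of _412_ to mdg1 counts within a library depends on no scaling. The mutant libraries had ratios of 1.09 and 1.08 and the piwi control libraries 1.02 and 1.09, and the ranges overlapped. In the knockdown it was 1.31 and 1.52, against 0.370 and 1.08 in the RnpS1 control. RnpS1 control replicate 1 stood apart by its high mdg1 and low _412_. Across the 8 libraries the log2 levels of _412_ and mdg1 had a Pearson's r of 0.96, given as a description, since libraries of a group share a genotype.

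**Figure D2:**
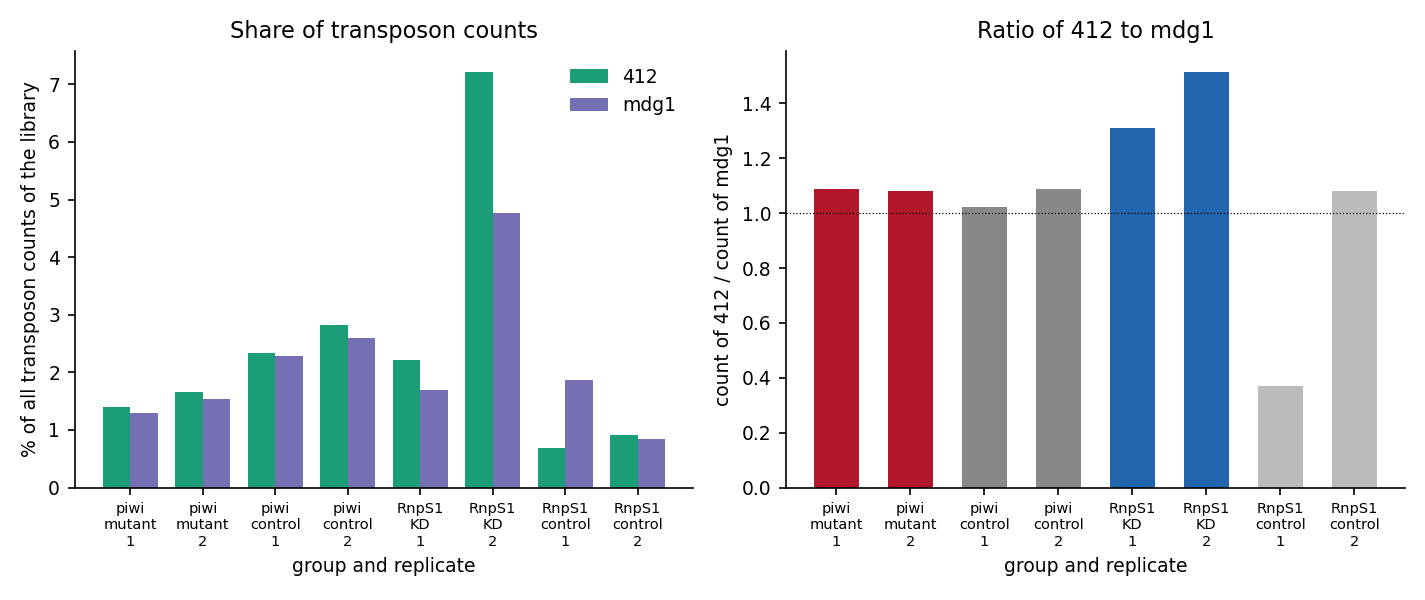
Left, the percentage of all transposon counts of a library held by _412_ and by mdg1; right, the ratio of _412_ counts to mdg1 counts, with a dotted line at equal counts; bars are single libraries. Knockdown replicate 2 holds the highest shares, 7.22% and 4.76%, and RnpS1 control replicate 1 the lowest ratio, 0.370.

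Stalker4 and Stalker2 rose in the piwi mutant and not in the knockdown. Stalker4 had 40.9 and 39.7 CPM in the piwi mutant, against 7.45 and 6.17 CPM in the piwi control (40.3 ± 0.863 against 6.81 ± 0.905 CPM, SD, n = 2 each). The mutant mean was 5.91 times the control mean (log2 fold change 2.41, SE 0.426, adjusted p = 9.1e-08). In the knockdown Stalker4 had 8.75 and 8.29 CPM, against 7.66 and 7.61 CPM in the RnpS1 control. The 4 values did not overlap between groups, but the log2 fold change was 0.04 (SE 0.405, 95% interval −0.75 to 0.84, adjusted p = 0.991). The changes in the 2 comparisons differed from each other by −2.36 (knockdown change minus mutant change, SE 0.581, adjusted p = 0.000323). With scaling from the transposon families that difference was −0.997 (adjusted p = 0.0504). Stalker4 was also the member with the most even level outside the mutant, between 6.17 and 8.75 CPM in 6 libraries.

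Stalker2 had 119 and 119 CPM in the piwi mutant, against 33.4 and 21.6 CPM in the piwi control, 4.34 times the control mean (log2 fold change 1.96, SE 0.425, adjusted p = 1.4e-05; 0.41, adjusted p = 0.407, with scaling from the families). In the knockdown Stalker2 had 83.0 and 75.8 CPM, against 94.8 and 41.5 CPM in the RnpS1 control. Both knockdown values lay between the control values, and the log2 fold change was 0.10 (SE 0.410, 95% interval −0.70 to 0.91, adjusted p = 0.976). Without RnpS1 control replicate 1 it was 0.81 (adjusted p = 0.544), and without RnpS1 control replicate 2 it was −0.38 (adjusted p = 0.720). The knockdown change minus the mutant change was −1.85 (SE 0.585, adjusted p = 0.00651). That difference was lost with scaling from the transposon families (−0.60, adjusted p = 0.470), and without RnpS1 control replicate 1 (−1.17, adjusted p = 0.141), piwi control replicate 2 (−1.56, adjusted p = 0.105), piwi mutant replicate 1 (−1.86, adjusted p = 0.0670) or piwi mutant replicate 2 (−1.85, adjusted p = 0.0566). The RnpS1 control had more Stalker2 than the piwi control had (1.29, SE 0.417, adjusted p = 0.0129). That call was lost without RnpS1 control replicate 1 (0.60, adjusted p = 0.544), without either piwi control library (adjusted p = 0.0874 and 0.109) and without either mutant library (0.0680 and 0.0551).

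Stalker itself moved less. It had 22.7 and 23.0 CPM in the piwi mutant, against 12.7 and 8.56 CPM in the piwi control, 2.15 times the control mean (log2 fold change 0.95, SE 0.412, adjusted p = 0.0357). With scaling from the transposon families it turned to −0.61. The call was also lost in 5 of 8 fits without 1 library: without either mutant library (adjusted p = 0.168 and 0.160), piwi control replicate 2 (0.69, adjusted p = 0.177) or either knockdown library (0.0553 and 0.0614). It was lost as well with the 2 groups of the comparison alone (0.98, adjusted p = 0.0755). In the knockdown Stalker had 7.29 and 6.99 CPM, against 5.37 and 9.33 CPM in the RnpS1 control, a log2 fold change of −0.15 (SE 0.410, 95% interval −0.96 to 0.65, adjusted p = 0.954). The difference between its changes in the 2 comparisons, −1.10 (SE 0.580), had an adjusted p of 0.119.

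Stalker3T differed by control and not within a comparison. It had 6.94 and 4.91 CPM in the piwi mutant, against 3.93 and 7.72 CPM in the piwi control, overlapping ranges with a log2 fold change of −0.14 (SE 0.443, 95% interval −1.01 to 0.73, adjusted p = 0.789). In the knockdown it had 0.830 and 1.04 CPM, against 0.706 and 0.990 CPM in the RnpS1 control (0.04, SE 0.475, adjusted p = 0.991). These levels came from 63 and 90 counts in the knockdown and from 53 and 48 counts in the RnpS1 control. The exact Poisson interval of the lowest level ran from 0.529 to 0.923 CPM. The RnpS1 control had less Stalker3T than the piwi control had, by a log2 difference of −2.81 (SE 0.486, adjusted p = 4.3e-07), and it kept that call with each of the 8 libraries left out. The RnpS1 libraries of both groups lay below every library of the piwi comparison.

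**Figure D3:**
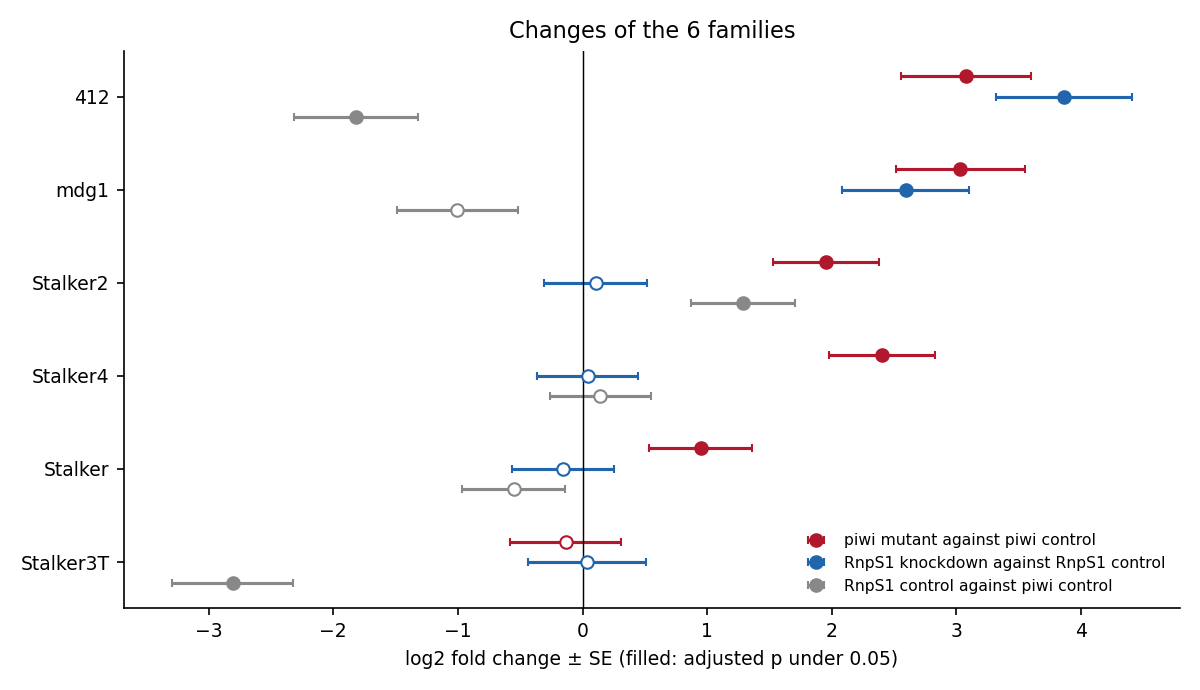
Log2 fold change with its SE for the 6 families in piwi mutant over piwi control, RnpS1 knockdown over RnpS1 control, and RnpS1 control over piwi control; filled points have an adjusted p under 0.05. The mutant values of _412_ and mdg1 are 3.08 and 3.03 and their knockdown values 3.87 and 2.59, whereas the knockdown values of the 4 Stalker families lie between −0.15 and 0.10.

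Of the 6 members 5 rose in the mutant and 0 fell, where 62.6% of the 123 families were called higher, 1.63% lower and 64.2% in either direction; with scaling from the families 3 of the 6 rose and 2 fell. The same 5 had both mutant libraries above both control libraries, as had 89.4% of all families. The median log2 fold change of the members was 2.18 and that of all families 1.22. In the knockdown 2 of the 6 rose, where 17.9% of all families were called higher, with a median of 0.07 for the members and 0.19 for all. Both knockdown libraries lay above both control libraries for _412_, mdg1 and Stalker4, as for 36.6% of all families. Without piwi control replicate 2, 49 families were called higher in the mutant against 77, and without RnpS1 control replicate 1, 11 were called higher in the knockdown against 22. No family was lower in the knockdown by edgeR (0 at an adjusted p under 0.05, 0 at an unadjusted p under 0.05, and 0 in DESeq2). The 22 families called higher in the knockdown, _412_ and mdg1 among them, were all called higher in the mutant too; they made up 28.6% of the 77 called there. For the difference between the changes, 2 of the 6 members were called, both lower, against 37.4% of all families called lower and 38.2% in either direction. Between the controls 1 member was higher and 2 were lower in the RnpS1 control, against 6.5% of all families higher, 23.6% lower and 30.1% in either direction.

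**Figure D4:**
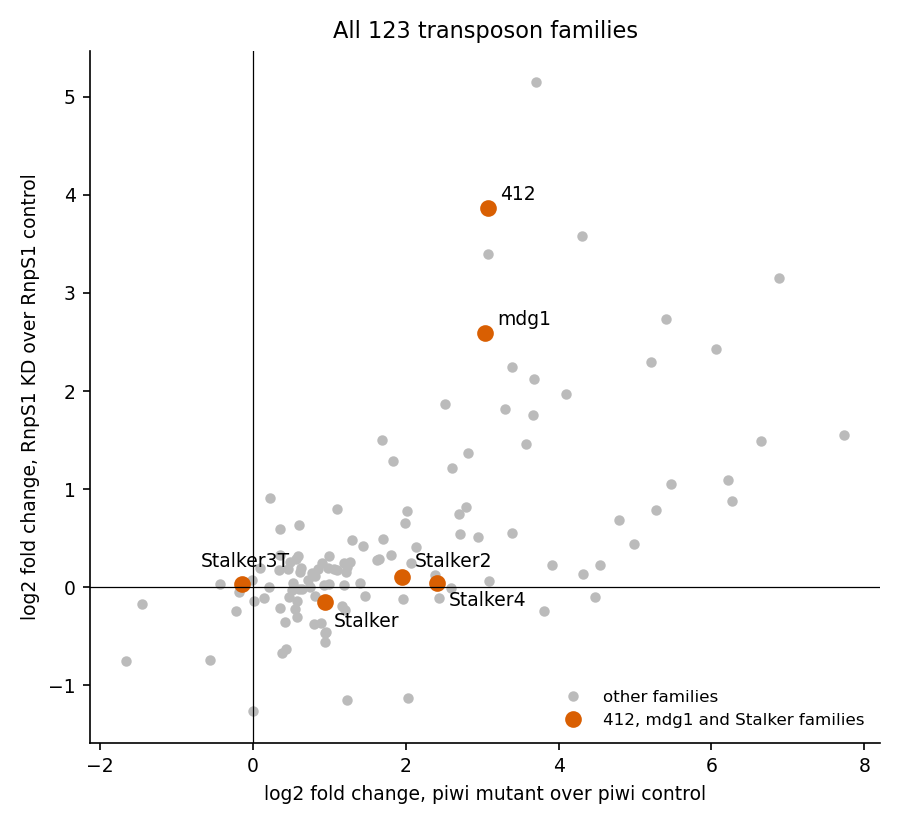
Log2 fold change of each of the 123 families in the piwi mutant (x axis) and in the RnpS1 knockdown (y axis), each over its own control; the 6 families are coloured and named. The families _412_ (3.08 and 3.87) and mdg1 (3.03 and 2.59) lie high on both axes, and the Stalker families lie near 0 on the y axis.

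These directions are relative to gene counts. When the scaling was taken from the transposon families themselves, the median of all families in the mutant moved to −0.29; _412_ (1.49), mdg1 (1.46) and Stalker4 (0.81) were still called higher, Stalker2 (0.41) was not, Stalker was called lower (−0.61) and Stalker3T was called lower (−1.87). In the knockdown _412_ (3.62) and mdg1 (2.26) kept their calls under that scaling.

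The family blood, a close relative of _412_ and mdg1 outside the naming rule, rose in the mutant and not in the knockdown. It had 2607 and 2418 CPM in the mutant, against 327 and 201 CPM in the piwi control (log2 fold change 3.09, SE 0.536, adjusted p = 4.9e-08). In the knockdown blood had 541 and 575 CPM, against 649 and 337 CPM in the RnpS1 control (0.06, SE 0.495, adjusted p = 0.991). Its changes in the 2 comparisons differed by −3.03 (knockdown minus mutant, SE 0.715, adjusted p = 0.000179). For _412_ that difference was 0.79 (SE 0.685, 95% interval −0.56 to 2.14, adjusted p = 0.366) and for mdg1 −0.44 (SE 0.678, 95% interval −1.77 to 0.89, adjusted p = 0.625). Like blood, Stalker2 and mdg1 were higher in RnpS1 control replicate 1 than in replicate 2.

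The retrovirus-like elements of follicle cells belong to the gypsy group. A list of 12 families of that group held gypsy, gypsy5, gtwin, ZAM, Idefix, _17.6_, _297_, Tirant, Quasimodo, springer, rover and opus. In which ovarian cells these 12 were transcribed was not tested. All 12 rose in the mutant, against 62.6% of all families. Their median log2 fold change was 3.76, in a range from 0.97 to 6.27. The list was chosen with earlier results of these data known and leaves out most numbered gypsy families, among them gypsy3 (0.58), gypsy9 (0.61), gypsy10 (0.36) and gypsy11 (−0.18), which were not called in the mutant. In the knockdown 3 of the 12 rose, against 17.9% of all families, with a median of 0.67 and a range from −0.24 to 5.15. The highest of these was Tirant, the only family with a larger knockdown change than _412_, at 16.1 and 183 CPM in the 2 knockdown libraries.

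Outside the 6 members, the families whose log2 levels followed a member most closely over the 8 libraries were taken by Pearson's r, as a description. For _412_ they were GATE (0.97), transib3 (0.95) and P-element (0.95), and for mdg1 GATE (0.97), accord (0.97) and HMS-Beagle2 (0.96). GATE, also an LTR family, had log2 fold changes of 4.31 in the mutant (SE 0.550, adjusted p = 1.7e-13) and 3.58 in the knockdown (SE 0.532, adjusted p = 1.4e-09). Stalker4 was followed by TAHRE (0.99), ZAM (0.99) and transib1 (0.99), Stalker by X-element (0.99), hobo (0.99) and mariner2 (0.99), Stalker2 by transib2 (0.91), accord2 (0.89) and blood (0.88), and Stalker3T by _1731_ (0.91), G2 (0.90) and INE-1 (0.88). None of the 3 families named for a Stalker family was also named for _412_ or mdg1. Among the members, the Stalker families had an r with _412_ from 0.39 (Stalker3T) to 0.73 (Stalker4). With mdg1 it ran from 0.39 (Stalker3T) to 0.81 (Stalker4).

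Genes of the silencing pathway were read in the same libraries. Of 9 nuclear silencing genes tested 3 fell in the mutant, where 5.06% of all genes fell and 6.37% rose. They were piwi, mael (−0.46, SE 0.0792, adjusted p = 0.0207), which acts downstream of Piwi, and egg (−0.41, SE 0.0966, adjusted p = 0.0414), which encodes a histone H3 lysine 9 methyltransferase. In the knockdown 1 of the 9 fell, piwi, where 0.738% of all genes fell, and 0 were called higher in edgeR, where 0.882% of all genes were. At an unadjusted p under 0.05, and also in DESeq2, 3 of the 9 were higher and 1 was lower. The 3 were nxf2 (log2 fold change 0.50, adjusted p = 0.0608), mael (0.34, adjusted p = 0.0896) and wde (0.70, adjusted p = 0.0564), named after their values were seen. The gene wde, whose product is a partner of the methyltransferase egg, had 401 and 475 CPM in the knockdown, against 237 and 262 CPM in the RnpS1 control. Of 9 genes that supply piRNAs in follicle cells 0 passed in either comparison (1 lower in the mutant and 3 lower in the knockdown at an unadjusted p under 0.05, and the same numbers in DESeq2). Of 13 germline piRNA genes tapas fell in the mutant (−0.63, SE 0.102, adjusted p = 0.0191), and 0 passed in the knockdown (3 higher and 4 lower at an unadjusted p under 0.05, 2 higher and 3 lower in DESeq2).

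Markers of the cell types in an ovary were summed in each library. The summed level of 8 follicle cell markers was 218 and 252 CPM in the mutant, against 357 and 203 CPM in the piwi control. In the knockdown it was 251 and 392 CPM, against 229 and 403 CPM in the RnpS1 control, so that the groups overlapped in both comparisons. Single markers went both ways: 2 of the 8 changes were positive in the mutant and 3 in the knockdown. Fas3 averaged 106 CPM in the mutant against 45.5 CPM in its control, and 96.8 against 37.7 CPM in the knockdown comparison, without overlap. Its edgeR log2 fold changes were 1.06 and 1.24 (adjusted p = 0.0645 and 0.0988), and DESeq2 called both (adjusted p = 0.00359 and 0.00129). For tj they were −1.16 and −0.999 and for Cad99C −1.47 and −0.459, called by neither. The sum of the 8 follicle cell markers was higher in replicate 2 than in replicate 1 in both the knockdown and the RnpS1 control, as was _412_. Single markers did not all share that order, and Fas3 was higher in replicate 1 of both groups. Cad99C alone spanned 45.1 to 155 CPM in the knockdown and 71.8 to 184 CPM in the RnpS1 control. The family mdg1 was higher in replicate 2 of the knockdown and in replicate 1 of the RnpS1 control. The summed level of 7 germline markers was 3005 and 3264 CPM in the mutant, against 4212 and 3893 CPM in the piwi control, and 4053 and 4171 CPM in the knockdown, against 4152 and 4420 CPM in the RnpS1 control. The 7 muscle markers of the ovarian sheath summed to 1371 and 2544 CPM in the mutant, against 451 and 157 CPM in the piwi control. In the knockdown they summed to 244 and 833 CPM, against 104 and 792 CPM in the RnpS1 control, with overlapping ranges. Of the germline markers osk (−0.71, SE 0.110, adjusted p = 0.0167), egl (−0.59) and bcd (−0.58) fell in the mutant, 3 of 7 where 5.06% of all genes fell, and 0 of 7 passed in the knockdown, in edgeR at an adjusted or an unadjusted p under 0.05 and in DESeq2. Of the follicle cell markers 0 of 8 passed in either comparison (in the mutant 2 higher and 1 lower at an unadjusted p under 0.05 and 2 higher in DESeq2; in the knockdown 1 higher by each). Of the muscle markers 0 of 7 passed in the mutant, with a median log2 fold change of 2.64 (5 with an unadjusted p under 0.05, all higher, and 2 by DESeq2), and 0 in the knockdown (0 at an unadjusted p under 0.05, 0 in DESeq2). No marker was at 0 in any library. The median log2 fold change of the 7 germline markers in the mutant was −0.42, where mael had −0.46 and egg −0.41. In whole ovaries fewer cells of a type and less RNA per cell cannot be told apart. The part of cell makeup in the levels of the 6 families and of the pathway genes was not tested.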

How the data were processed

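Strand-specific libraries were made from ovarian total RNA after 2 rounds of ribosomal RNA removal, per the labels' protocols. For each of 8 libraries the authors deposited raw read counts per gene (15682 identifiers) and raw read counts per transposon family (123), neither normalized nor pooled. The submitters' processing notes name HTSeq 0.5.3p9, DESeq, TopHat2 2.0.9 and CASAVA 1.8 and 1.8.2, and the builds dm3 and BDGP5. The authors' name for the family counts marks them as unique counts. The sources used here do not explain what that means for reads that match several families. They give no aligner or reference for these counts. The 5 summary rows that name no gene were kept out of library sizes. Reads outside any gene were 1.91% to 10.7% and ambiguous reads 1.19% to 1.63% of gene counts plus both. Alignments that were not unique were 43.2% to 66.0% of all these and themselves.

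Families with a total of 10 or more counts (all 123) were tested by edgeR's quasi-likelihood method (edgeR 4.0.16, R 4.3.3) in a single model of all 8 libraries with a term per group, library sizes and TMM factors coming from gene counts. The 4 residual degrees of freedom were joined by a prior of 1175, so a family's error was close to that of the trend over all families and hardly its own. A fit of families and genes together (prior 2.98) and DESeq2 1.42.0 served as alternatives. Genes (10434 kept by filterByExpr) were fitted the same way. An exact permutation test (two-sided) of 2 libraries against 2 has a smallest p of 0.333 and was not used. No pair of replicates agreed within counting noise: over families, chi-square divided by its degrees of freedom was 50.7 to 4432. The test was tried on simulated counts. These gave every family the common dispersion of the fit (0.0892), so they could not show how the test fares where families differ in spread. All 6 members and, for each, the 3 families outside the 6 with the highest Pearson's r of log2(CPM + 1) were named. Pathway genes that passed were named too. Members and lists were chosen with earlier results of these data known. Gene symbols came from a later annotation, which matched 15002 identifiers; 9 of 11 nuclear, 13 of 16 germline piRNA, 7 of 9 germline and 7 of 8 muscle symbols were matched. Alternatives were another scaling, other filters, a replicate block, the groups of a comparison alone and each library left out.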

Additional observations from a re-analysis of the deposited data

Results flagged for a closer look

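Stalker2 and Stalker4 are listed because their changes in the 2 comparisons differed by the test of the difference itself. For Stalker4 the knockdown change minus the mutant change was −2.36 (adjusted p = 0.000323, edgeR), and for Stalker2 it was −1.85 (adjusted p = 0.00651). Stalker2 also differed between the controls, and its RnpS1 control libraries lay at 94.8 and 41.5 CPM. The difference was no longer called with scaling from the transposon families for either (−0.997, adjusted p = 0.0504, for Stalker4 and −0.60, adjusted p = 0.470, for Stalker2). For Stalker2 it was also lost in 4 of 8 fits without 1 library, with an adjusted p between 0.0566 and 0.141, and without RnpS1 control replicate 1 it was −1.17.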

How the results depend on the processing

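The 6 families were refitted under up to 16 alternatives in each of 4 comparisons. The calls of _412_, mdg1 and Stalker4 in the mutant, of _412_ and mdg1 in the knockdown and of Stalker3T between the controls held in all 16; with families and genes fitted together the adjusted p-values of _412_ were 0.000292 in the mutant and 0.000954 in the knockdown, and those of mdg1 0.000727 and 0.00626. That fit left every call of a member as it was. With scaling from the families, Stalker turned to −0.61 in the mutant and 1 of 6 members was called for the difference between the changes, namely _412_ (2.13, adjusted p = 0.0124), with Stalker4 at −0.997 (adjusted p = 0.0504). That scaling gave 41 families higher and 48 lower in the mutant, 5 lower in the knockdown, 18 higher and 16 lower for the difference, and 22 higher and 12 lower between the controls. For the difference, 0 families were higher with library totals alone, in DESeq2 and with the replicate block, against 1. Between the controls, 5 were higher with genes in the fit, and 2 higher and 6 lower with these groups alone. Without 1 library, families called were 49 to 97 higher and 1 to 2 lower in the mutant, 11 to 20 higher in the knockdown, 0 to 1 higher and 28 to 75 lower for the difference, and 1 to 7 higher and 3 to 48 lower between the controls; members called were 1 to 3 for the difference and 1 to 3 between the controls. The lowest counts came without piwi control replicate 2 in the mutant (49) and without RnpS1 control replicate 1 in the knockdown (11) and between the controls (3 lower). Where a group kept 1 library, that library was assumed to vary like the others. The cause of these shifts was not tested.

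Deviations of same-numbered libraries, over genes, correlated at −0.27 in the piwi comparison and 0.34 in the RnpS1 comparison. These values do not settle whether replicate numbers pair the libraries. With the replicate block, genes called were 659 in the mutant and 64 in the knockdown, against 1193 and 169; Stalker lost its mutant call (0.94, adjusted p = 0.0629), 1 of 8 alternatives of 16 that ended it, and no other member call changed. Genes called were 2465 and 992 in DESeq2, 27 to 1138 and 0 to 139 without 1 library (lowest without piwi control replicate 2 and without RnpS1 control replicate 1), and 5 in the knockdown with its groups alone. The difference could not be fitted on 2 groups alone. Depth limits Stalker3T, with 48 to 365 counts per library.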
